A study of Mus musculus with 6 samples.

Results

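The 9 genes described here encode the mouse receptors for the constant (Fc) part of immunoglobulin G, the signalling chain that those receptors share, and the first kinases of the same cascade. They were chosen by symbol from an expression table of 18121 genes, and all 9 were found. They comprise the activating receptors *Fcgr1*, *Fcgr3* and *Fcgr4*, the inhibitory receptor *Fcgr2b*, the neonatal Fc receptor *Fcgrt*, the shared chain *Fcer1g*, and the kinases *Lyn*, *Syk* and *Btk*. RNA sequencing was carried out on Lin-CD117+ bone marrow cells, which the labels name hematopoietic stem cells. In the isolation protocol described for these cells, marrow was flushed from the leg bones of C57BL/6 mice aged 8 weeks. Ctrl cells (3 libraries) were in normal culture, and GA cells (3 libraries) were exposed for 24 h to glycyrrhizic acid, a saponin from licorice. No genotype or transgene is named for either group, and neither the GA concentration nor the culture medium of this RNA experiment is given in the sources used here. Whether replicates are separate animals or cultures is not stated in the labels. A p-value here therefore reflects only how much these libraries vary, and that variation may be technical.

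Activating Fc gamma receptors bind IgG on immune complexes but, in the mouse, have no signalling motif of their own. They depend on the FcR gamma chain encoded by *Fcer1g*, whose cytoplasmic tail carries an immunoreceptor tyrosine-based activation motif (ITAM). Src family kinases such as Lyn phosphorylate the ITAM tyrosines, Syk docks on the phosphorylated pair, and the Tec family kinase Btk acts further down on phospholipase C gamma. *Fcgr2b* carries an inhibitory motif (ITIM), which recruits the inositol phosphatase SHIP1, the product of *Inpp5d*. The same gamma chain serves the IgE receptor of mast cells and basophils, the collagen receptor GPVI of platelets and several C-type lectins of myeloid cells, so *Fcer1g* is not a marker of one cell type.

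The coding sequences of both motifs are shown because they set the activating and the inhibitory side of this gene group apart. They were read from GENCODE transcripts of GRCm38, 5′ to 3′, with the codons of the motif tyrosines in capitals.
Fcer1g ITAM, residues 65 to 79 of 86: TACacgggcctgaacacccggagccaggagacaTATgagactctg
Fcgr2b ITIM, residues 313 to 326 of 340: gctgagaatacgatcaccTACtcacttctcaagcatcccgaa
The ITAM has a pair of tyrosines, each followed at the third place by leucine, with 7 residues between the paired segments. The ITIM has a single tyrosine, and its line also shows flanking residues on both sides of the motif itself.

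On GRCm38, 4 of the 9 genes lay within 275.7 kb of chromosome 1. These were *Fcgr2b* (170958617 to 170976547, minus strand), *Fcgr4* (171018920 to 171029761, plus strand), *Fcgr3* (171051174 to 171064935, minus strand) and *Fcer1g* (171229572 to 171234365, minus strand). The other members lay elsewhere: *Fcgr1* on chromosome 3 (96282909 to 96293969), *Lyn* on chromosome 4 (3678115 to 3813122), *Fcgrt* on chromosome 7 (45092990 to 45103851), *Syk* on chromosome 13 (52583173 to 52648792) and *Btk* on chromosome X (134542336 to 134583570). The spans cover whole genes, exons and introns together.

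*Fcgr2b* and *Fcgr3*, the inhibitory and the activating low-affinity receptor, have nearly the same extracellular domains. Their coding sequences matched at 87.5% of 782 aligned bases, against 70.9% of 731 bases for *Fcgr2b* and *Fcgr4*. The longest identical stretch is shown, since a fragment within it cannot be assigned to either gene. It covers coding bases 278 to 406 of *Fcgr2b* and 263 to 391 of *Fcgr3*, printed in lower case throughout because no base in it differs.
Fcgr2b and Fcgr3, 129 shared bases: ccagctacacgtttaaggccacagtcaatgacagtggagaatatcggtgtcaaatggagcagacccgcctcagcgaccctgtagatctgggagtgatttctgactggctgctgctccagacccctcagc
Of all windows of 50 bases, 12.8% of those in *Fcgr3* and 4.75% of those in *Fcgr2b* also occurred in the other gene. The pairs of *Fcgr1* or *Fcgr4* with another Fc gamma receptor gene had 0% in common. The values of *Fcgr3* and *Fcgr2b* are thus uncertain to the extent that the authors' counting divided shared fragments.

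Expression is given as FPKM, fragments per kilobase of transcript per 1000000 mapped fragments, so levels of different genes can be set side by side per length. The table held no counts, and depth is therefore unknown. Summed FPKM lay between 508672 and 525018 in 5 libraries and reached 555449 in GA replicate 1. That library also stood apart on the first principal component (39.6% of the variance), at 14.97 against −5.82 to 0.25 for the others. Relative to the Ctrl mean, on the log2 scale, its median was 0.19 higher among the shortest eighth of transcripts and 0.16 lower among the longest. In GA replicates 2 and 3 the median of the shortest eighth was also higher, by 0.10 and 0.07. That of the longest eighth was −0.018 and 0.0065 there. The results below are accordingly also given without GA replicate 1 where that matters. Of the Lin-CD117+ progenitor markers, 9 of 9, *Kit* among them, averaged 1 FPKM or more, and *Kit* itself was at 16.04 to 21.2 FPKM. The cells also held monocyte and macrophage markers (10 of 10 at 1 FPKM or more), neutrophil markers (9 of 10) and megakaryocyte and platelet markers (8 of 8). *Pf4*, a platelet chemokine, was the highest of all markers at a mean of 13798 FPKM. The highest marker was *Lyz2* (2112 FPKM) in the monocyte and macrophage list and *Ngp* (492 FPKM) in the neutrophil list. Mast cell and basophil markers reached 1 FPKM in 6 of 8 cases (highest *Prss34*, 54.8 FPKM), dendritic cell markers in 5 of 8 (*Cd74*, 60.6 FPKM) and erythroid markers in 4 of 6 (*Hbb-bt*, 798 FPKM). B cell markers did so in 1 of 8 cases (*Cd79b*, 4.04 FPKM) and T and NK cell markers in 1 of 7 (*Nkg7*, 18.6 FPKM). The summed neutrophil markers ranged from 1241 to 1411 FPKM in Ctrl and from 1534 to 1642 FPKM in GA. Within that list the groups were apart for *S100a8* (means 262 in Ctrl and 350 FPKM in GA), *S100a9* (410 and 522 FPKM) and *Retnlg* (13.3 and 19.5 FPKM). They overlapped for *Ly6g*, *Camp*, *Ltf*, *Ngp*, *Mmp8*, *Mmp9* and *Cxcr2*. Among all tested genes 11.6% were separated with GA higher. The part of neutrophil content in the receptor values was not tested.

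Across the 6 libraries the signalling components were far more abundant than the receptors. *Fcer1g* ranked 61 among the 18121 genes, with a mean of 1100.3 FPKM. It was followed by *Btk* (152.3 FPKM), *Syk* (110.4 FPKM) and *Lyn* (90.1 FPKM). Each of these was higher than the next in all 6 libraries, with no overlap between the ranges. The receptors came below the kinases: *Fcgr3* at 38.7 FPKM and *Fcgr2b* at 21.2 FPKM, again with separate ranges. *Fcgr4* (2.96 FPKM) and *Fcgrt* (2.71 FPKM) were lower and could not be ordered, as *Fcgr4* was the higher in only 4 of 6 libraries. *Fcgr1*, the high-affinity receptor, was lowest at 1.53 FPKM. These orders are a description and carry no test.

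**Figure D1:**
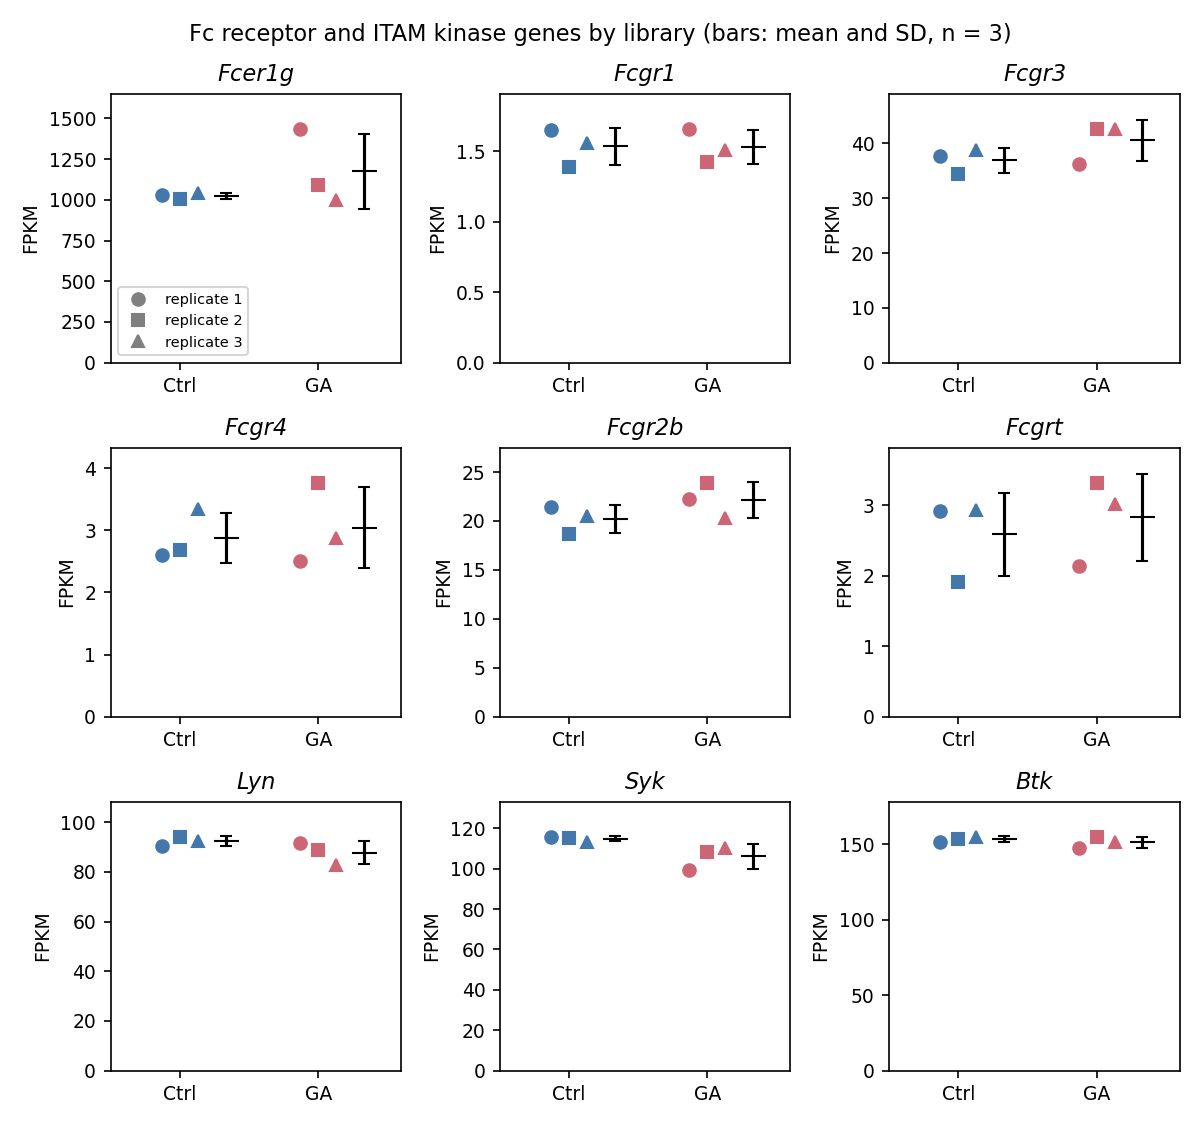
FPKM of the 9 genes in each of the 6 libraries (points, with shapes for replicate numbers), beside the mean and SD of each group (bars, n = 3), on axes that start at 0. Ctrl and GA points overlap for every gene except *Syk*, whose 3 GA libraries (99.1 to 110.4 FPKM) lie below the 3 Ctrl libraries (113.4 to 115.8 FPKM).

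All 9 genes passed the minimum mean of 1 FPKM and were among the 10912 genes tested for a GA effect with limma on log2(FPKM + 1). None of the 9 passed a Benjamini-Hochberg adjusted p of 0.05, and neither did any other gene, so 0% of tested genes were called in either direction and the smallest adjusted p over all genes was 0.135. Without adjustment, limma gave 1 of the 9 genes (*Syk*) a p under 0.05, against 13.5% of tested genes (8.88% higher and 4.63% lower in GA). The log2 difference GA minus Ctrl was positive for 5 of the 9 and negative for 4, with a median of 0.05. Over all tested genes the median was 0.01, with 54.8% positive and 45.2% negative. The median of the 9 rested on single libraries, being −0.018 without Ctrl replicate 2 and 0.14 without Ctrl replicate 3. Bulk RNA cannot tell fewer cells of a type from less RNA per cell, and this holds for every value below.

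**Figure D2:**
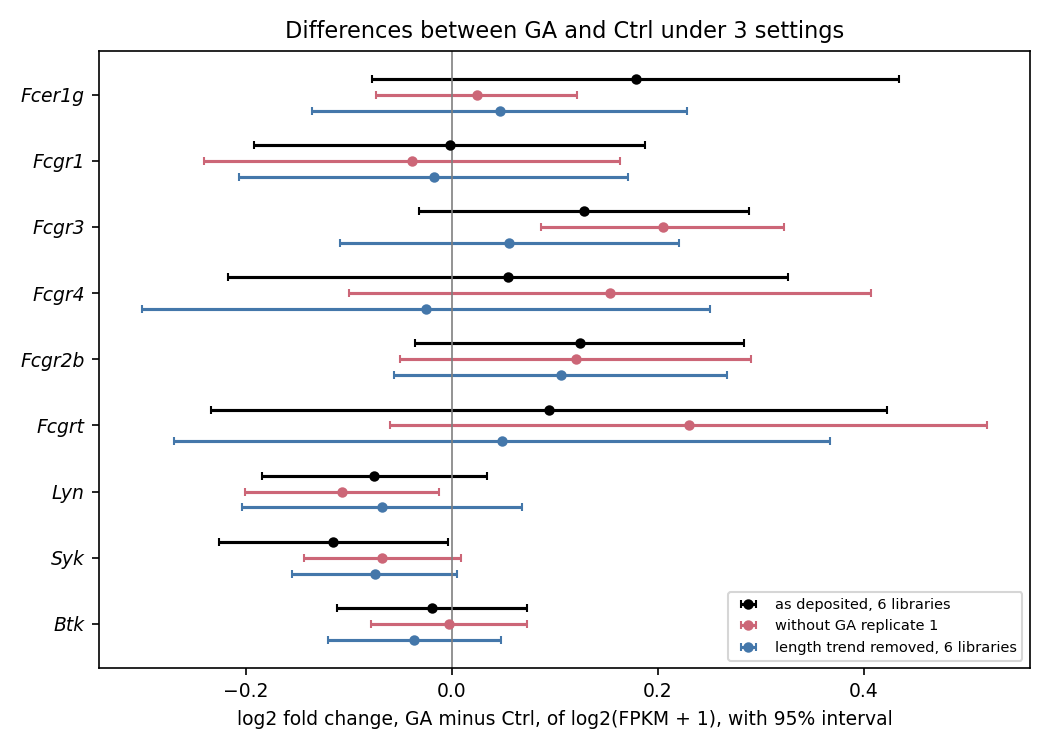
Difference between GA and Ctrl on the log2(FPKM + 1) scale for each of the 9 genes, with 95% intervals from limma, fitted on all 6 libraries, without GA replicate 1 and with the length trend removed. With all libraries, only the interval of *Syk* (−0.23 to −0.0036) leaves out 0. Without GA replicate 1 those of *Fcgr3* (0.087 to 0.32) and *Lyn* (−0.20 to −0.012) leave out 0, and that of *Syk* (−0.14 to 0.0086) does not.

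*Fcer1g*, the chain that links activating Fc receptors to Syk, was at 1033, 1004 and 1039.9 FPKM in Ctrl replicates 1, 2 and 3, and at 1438, 1091 and 997 FPKM in GA replicates 1, 2 and 3. The Ctrl libraries were close together, GA replicate 1 was far above every other library, and GA replicate 3 was below all of Ctrl. The group means were 1025 ± 18.9 and 1175 ± 232 FPKM for Ctrl and GA (SD, n = 3), and the coefficient of variation was 1.85% in Ctrl against 19.8% in GA. The log2 difference of 0.18 (SE 0.11, 95% interval −0.08 to 0.43) did not exceed the spread between replicates (limma, Benjamini-Hochberg adjusted p = 0.545).

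The GA mean of *Fcer1g* was set by that one library. Without GA replicate 1 the log2 difference was 0.02 (95% interval −0.07 to 0.12, limma adjusted p = 0.781, over a range of 0.253 to 0.908 in all alternatives). *Fcer1g* has a short transcript (674 nt), and in GA replicate 1 it deviated from its Ctrl mean by 0.49. Only 0.788% of tested genes deviated further upward in that library, but among the 1341 genes of the shortest length eighth the share was 5.07%. With the length trend of each library removed, the GA minus Ctrl difference was 0.05 (limma adjusted p = 0.908). Removing the trend and leaving out GA replicate 1 together turned the sign, to −0.05 (limma adjusted p = 0.50). The platelet marker *Pf4* was also highest in GA replicate 1, at 17513 FPKM against 11829 to 13593 FPKM elsewhere, and the summed platelet markers were 25702 FPKM there against 18456 to 21074 FPKM. Of the 8 platelet markers 5 were highest in GA replicate 1, and *Pf4* and *Ppbp* make up most of the sum. The other 3 were lower in every GA library, not only in replicate 1, than in every Ctrl library, as were 8.29% of tested genes. *Thbs1* (thrombospondin 1) was at 713.6, 716.9 and 719.7 FPKM in GA replicates 1, 2 and 3, against 889 to 936 FPKM in Ctrl. In the same order, *Itga2b* (integrin alpha IIb) was at 966, 917 and 954 FPKM against 1056 to 1075 FPKM. *Tubb1* (a platelet beta tubulin) was at 87.3, 82.0 and 85.2 FPKM against 102 to 107 FPKM. The part of platelet RNA in the *Fcer1g* value was not tested.

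The genes whose pattern over the 6 libraries was most like that of *Fcer1g* were *Cd96* (an adhesion receptor known from T and NK cells), *Dynlrb1* (a dynein light chain) and *Uqcr11* (a subunit of respiratory complex III). Their log2 deviations from the Ctrl mean differed from those of *Fcer1g* by a root mean square of 0.017, 0.020 and 0.026. Like *Fcer1g*, each was highest in GA replicate 1, at 38.3 FPKM for *Cd96*, 304.8 FPKM for *Dynlrb1* and 209 FPKM for *Uqcr11*. *Dynlrb1* (684 nt) and *Uqcr11* (445 nt) have short transcripts as well, while that of *Cd96* is 2184 nt. Likeness over 6 libraries is a description only.

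**Figure D3:**
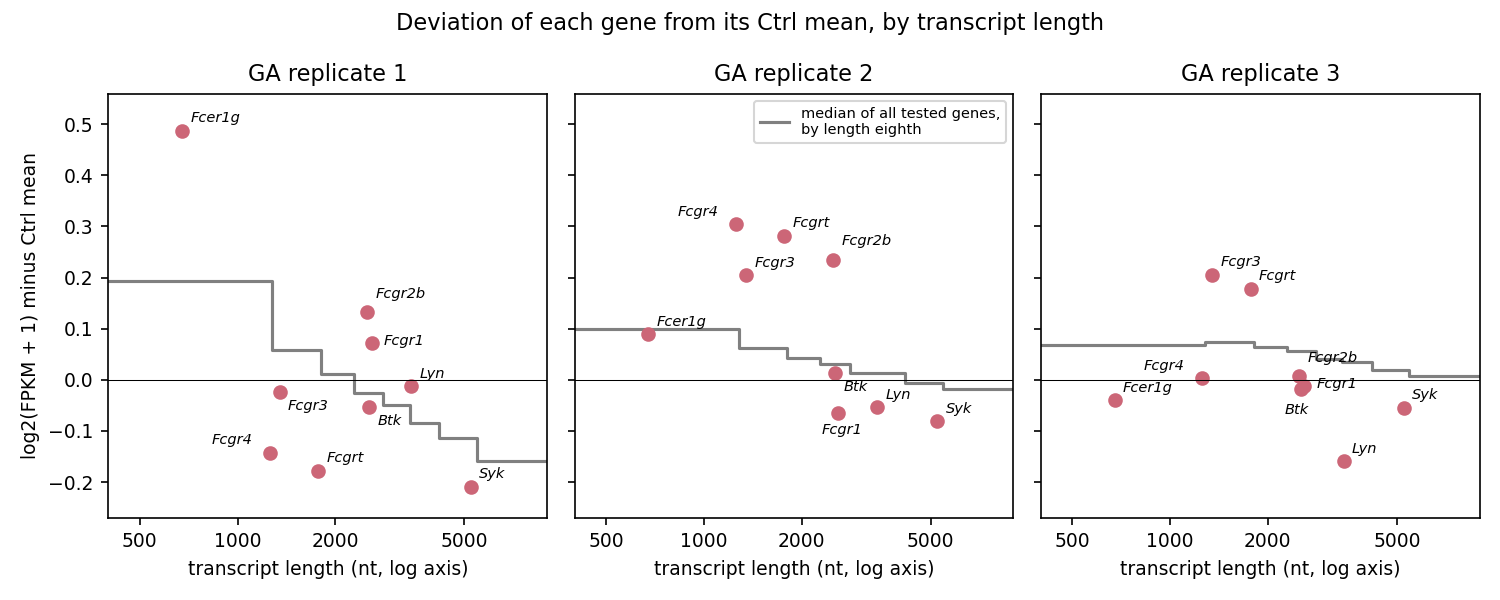
Deviation of each of the 9 genes from its Ctrl mean in GA replicates 1, 2 and 3 (log2 scale, points), against transcript length on a log axis, with the median of all tested genes in each length eighth as a stepped line. In GA replicate 1 the line falls from 0.19 to −0.16 with length, *Fcer1g* lies at 0.49 and *Syk* at −0.21.

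Among the activating receptors, *Fcgr3* (CD16 of the mouse) was at 37.7, 34.4 and 38.7 FPKM in Ctrl and at 36.3, 42.7 and 42.7 FPKM in GA. GA replicates 2 and 3 were above all Ctrl libraries, whereas GA replicate 1 was within the Ctrl range. The means were 36.9 ± 2.27 and 40.5 ± 3.69 FPKM (SD, n = 3), a log2 difference of 0.13 (SE 0.07, 95% interval −0.03 to 0.29, limma Benjamini-Hochberg adjusted p = 0.470). Without GA replicate 1 the difference was 0.20 (limma adjusted p = 0.0856). It was smaller, at 0.06, with the length trend removed (limma adjusted p = 0.863). After rescaling each library to 1000000 it was 0.07 (limma adjusted p = 0.813). Down-weighting variable libraries by restricted maximum likelihood, an alternative chosen after seeing the data, gave 0.19 (limma adjusted p = 0.0255), over a range of 0.0255 to 0.863 in all alternatives. In that same fit 9.26% of tested genes were called higher and 4.12% lower in GA.

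*Fcgr4*, which binds mouse IgG2a and IgG2b, was at 2.60, 2.69 and 3.34 FPKM in Ctrl and at 2.50, 3.77 and 2.87 FPKM in GA. The lowest and the highest library were both GA libraries. The log2 difference was 0.05 (SE 0.12, 95% interval −0.22 to 0.33, limma adjusted p = 0.896), and it was −0.070 without GA replicate 2. *Fcgr1*, which encodes CD64 and is typical of macrophages, was at 1.65, 1.39 and 1.56 FPKM in Ctrl and at 1.66, 1.42 and 1.51 FPKM in GA. Its group means were level, at 1.53 ± 0.132 and 1.53 ± 0.121 FPKM (SD, n = 3), and the 95% interval of the log2 difference ran from −0.19 to 0.19. Its sign varied with the library left out (−0.043 without Ctrl replicate 2, 0.031 without Ctrl replicate 1, 0.0065 without Ctrl replicate 3, 0.030 without GA replicate 2 and 0.0035 without GA replicate 3).

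The inhibitory receptor *Fcgr2b* was at 21.4, 18.7 and 20.6 FPKM in Ctrl and at 22.2, 23.9 and 20.3 FPKM in GA. GA replicates 1 and 2 were above all Ctrl libraries, and GA replicate 3 was between the Ctrl values. The means were 20.2 ± 1.42 and 22.1 ± 1.82 FPKM (SD, n = 3), and the log2 difference was 0.12 (SE 0.07, 95% interval −0.04 to 0.28, limma Benjamini-Hochberg adjusted p = 0.486). With the same weighting chosen after seeing the data it was 0.20 (limma adjusted p = 0.0357), over a range of 0.0357 to 0.844 in all alternatives. The difference was 0.11 with the length trend removed (limma adjusted p = 0.701). After rescaling each library to 1000000 it was 0.07 (limma adjusted p = 0.800). The annotation gives *Fcgr2b* transcripts that encode 293 and 340 residues, which a value per gene does not separate.

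Ratios within a library do not depend on how libraries were scaled to each other, and they describe the balance between activating and inhibitory receptor RNA. They still carry the length trend, since these genes differ in transcript length. In GA replicate 1 that trend amounted to 0.24 for *Fcer1g*, 0.09 for *Fcgr3* and −0.02 for *Fcgr2b* on the log2 scale. The *Fcgr2b* level also rests on the length assumed, as its transcripts have 1462 and 3544 nt. *Fcgr3* exceeded *Fcgr2b* by 1.76, 1.84 and 1.88-fold in Ctrl and by 1.63, 1.78 and 2.11-fold in GA. The GA ratios lay on both sides of the Ctrl ratios, and the mean log2 ratio was 0.87 ± 0.050 in Ctrl and 0.87 ± 0.19 in GA (SD, n = 3). *Fcgr1* and *Fcgr4* were well below *Fcgr2b* in every library, with mean log2 ratios of −3.72 and −2.82 in Ctrl and −3.85 and −2.88 in GA. *Fcer1g* exceeded the sum of the 3 activating receptors by 24.6, 26.1 and 23.8-fold in Ctrl and by 35.5, 22.8 and 21.2-fold in GA, so that GA replicate 1 was above and the other GA libraries below all Ctrl libraries. Shared fragments of *Fcgr2b* and *Fcgr3* enter the first of these ratios.

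*Fcgrt* encodes the neonatal Fc receptor, a class I-like molecule that salvages IgG and albumin from degradation. It was at 2.92, 1.91 and 2.93 FPKM in Ctrl and at 2.14, 3.32 and 3.02 FPKM in GA. One library of each group, Ctrl replicate 2 and GA replicate 1, was well below the others, and the groups overlapped. The means were 2.59 ± 0.586 and 2.83 ± 0.613 FPKM (SD, n = 3), with a log2 difference of 0.09 (SE 0.15, 95% interval −0.23 to 0.42, limma Benjamini-Hochberg adjusted p = 0.845), which was −0.050 without Ctrl replicate 2. Its light chain *B2m*, which it shares with all class I molecules, was at 2136, 2176 and 2213 FPKM in Ctrl and at 3000.5, 2346 and 1929 FPKM in GA (log2 difference 0.13, limma adjusted p = 0.728, turning to −0.032 without GA replicate 1 and reaching 0.29 without GA replicate 3). As for *Fcer1g*, GA replicate 1 was the highest library for *B2m* and GA replicate 3 the lowest.

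Of the 5 receptor genes, 4 (*Fcgr1*, *Fcgr3*, *Fcgr2b* and *Fcgrt*) were lowest among Ctrl in replicate 2, and *Fcgr4* was lowest in Ctrl replicate 1. Among GA, *Fcgr3*, *Fcgr4* and *Fcgrt* were lowest in replicate 1, whereas *Fcgr1* was at its highest there and *Fcgr2b* was above all Ctrl libraries. Monocyte and macrophage markers were low in Ctrl replicate 2 and GA replicate 1. The median log2 deviation of the 10 monocyte and macrophage markers from their Ctrl means was −0.17 in Ctrl replicate 2 and −0.21 in GA replicate 1, against 0.07 to 0.15 in the other 4 libraries. Of the 10 markers, 9 were lowest among Ctrl in replicate 2 and 7 were lowest among GA in replicate 1. Other lists shared parts of this pattern. Of 9 tested neutrophil markers these counts were 7 and 4, of 6 mast cell and basophil markers 3 and 5, and of 9 progenitor markers 4 and 5. They were 3 and 3 of 5 dendritic cell markers, 1 and 1 of 8 platelet markers, and 0 and 1 of 4 erythroid markers. *Csf1r*, the receptor for macrophage colony-stimulating factor, was at 31.6 FPKM in Ctrl replicate 2 and 27.1 FPKM in GA replicate 1, against 37.6 to 39.98 FPKM in the others. The summed level of the list, in which *Lyz2* weighs most, was 2333 to 2674 FPKM in Ctrl and 2520.5 to 2823 FPKM in GA, with none of its genes at 0. The part of monocyte or other cell content in the receptor values was not tested.

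The kinases varied little among the Ctrl libraries. *Syk*, which binds the phosphorylated ITAM, was at 115.8, 115.0 and 113.4 FPKM in Ctrl and at 99.1, 108.5 and 110.4 FPKM in GA. All 3 GA libraries were below all 3 Ctrl libraries, the only such separation among the 9 genes, while 8.29% of tested genes were separated with GA lower and 19.9% in either direction. The means were 114.7 ± 1.26 and 106.0 ± 6.05 FPKM (SD, n = 3). The log2 difference was −0.11 (SE 0.05, 95% interval −0.23 to −0.0036), which did not hold after adjustment (limma, Benjamini-Hochberg adjusted p = 0.359). *Syk* has a long transcript (a median of 5242.5 nt), and it was lowest in GA replicate 1, where long transcripts were low. With the length trend removed the difference was −0.07 (SE 0.04, 95% interval −0.15 to 0.0055, limma adjusted p = 0.578). The groups stayed apart there, with deviations from the Ctrl mean of −0.087, −0.070 and −0.067 in GA and −0.017 to 0.013 in Ctrl. Without GA replicate 1 the difference was −0.07 (limma adjusted p = 0.289, over a range of 0.0965 to 0.658 in all alternatives).

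*Lyn*, the Src family kinase that phosphorylates both ITAM and ITIM tyrosines, was at 90.5, 94.2 and 92.5 FPKM in Ctrl and at 91.6, 89.0 and 82.7 FPKM in GA. GA replicate 1 was inside the Ctrl range and GA replicates 2 and 3 were below it. The means were 92.4 ± 1.86 and 87.8 ± 4.61 FPKM (SD, n = 3), and the log2 difference was −0.07 (SE 0.05, 95% interval −0.18 to 0.03, limma Benjamini-Hochberg adjusted p = 0.554). Without GA replicate 1 it was −0.11 (95% interval −0.20 to −0.012, limma adjusted p = 0.189). With the length trend removed it was −0.07 (limma adjusted p = 0.788). The adjusted p ranged from 0.186 to 0.826 in all alternatives. *Btk*, a Tec family kinase of myeloid cells, mast cells, platelets and B cells, was at 151.3, 153.6 and 155.0 FPKM in Ctrl and at 147.8, 154.8 and 151.3 FPKM in GA. GA replicate 2 was inside the Ctrl range and the other GA libraries were at or below its lower end, with means of 153.3 ± 1.86 and 151.3 ± 3.52 FPKM (SD, n = 3). Its log2 difference was −0.02 (SE 0.04, 95% interval −0.11 to 0.07, limma adjusted p = 0.893). B cell markers were scarce, with *Ms4a1* and *Pax5* at means of 0.0033 and 0.0083 FPKM, and the summed B cell list was 4.13 to 4.67 FPKM in Ctrl and 4.66 to 5.89 FPKM in GA.

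The other genes of the pathway were read from 7 lists with 78 genes, of which 60 were tested. None of the 60 passed the adjusted threshold (0% of tested genes), 29 had a positive and 31 a negative difference, and the median log2 difference was −0.0037, against 0.01 over all tested genes. The sign of this median varied with the library left out: it was 0.0090 without Ctrl replicate 1 and 0.026 without GA replicate 1, and −0.031, −0.0016, −0.015 and −0.025 without Ctrl replicates 2 and 3 and GA replicates 2 and 3. Without GA replicate 1 the median of all tested genes was 0.04. Without adjustment, limma gave 2 of them a p under 0.05 with GA higher and 6 with GA lower, 13.3% in all, beside 13.5% of all tested genes. The groups did not overlap for 14 of the 60 (23.3%), beside 19.9% of all tested genes.

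Of the other Fc receptors, 3 of 12 were tested, with a median log2 difference of 0.08 (0.18, 0.04 and 0.0026 without GA replicates 1, 2 and 3). *Trim21*, the cytosolic antibody receptor, had a mean of 3.38 FPKM in Ctrl, and the IgE receptor subunits *Fcer1a* (alpha) and *Ms4a2* (beta) had 3.31 and 2.22 FPKM. Their log2 differences were 0.08, −0.09 and 0.08, with smallest adjusted p = 0.783 (limma). The summed mast cell and basophil markers were 118 to 128 FPKM in Ctrl and 132 to 151 FPKM in GA. In that list the groups were apart, with GA higher, for *Prss34*, *Mcpt8* and *Cpa3*, as they were for 11.6% of all tested genes. They overlapped for *Fcer1a*, *Ms4a2*, *Hdc*, *Cma1* and *Tpsb2*. The part of such cells in these values was not tested.

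Of the other ITAM or hemITAM chains and receptors, 11 of 13 were tested, 7 with a positive difference, and their median was 0.09. It was 0.16 without GA replicate 1, with 8 of 11 positive, 0.05 and 0.06 without GA replicates 2 and 3, and 0.06 and 0.13 without Ctrl replicates 2 and 3. With the length trend removed it was 0.03. *Tyrobp*, which encodes DAP12, the other ITAM adaptor of myeloid cells, was at 206, 192 and 221 FPKM in Ctrl and at 227, 242 and 229 FPKM in GA. Every GA library was above every Ctrl library, but the log2 difference of 0.17 did not pass the adjusted threshold (limma adjusted p = 0.264). *Tyrobp* has a short transcript (564 nt), and with the length trend removed its difference was 0.03 (limma adjusted p = 0.939). *Cd79b*, the B cell receptor beta chain, was at 3.67, 3.15 and 3.64 FPKM in Ctrl and at 5, 4.78 and 3.99 FPKM in GA (log2 difference 0.31, limma adjusted p = 0.238), likewise without overlap. On platelets, *Gp6*, which pairs with the gamma chain, had a log2 difference of −0.06 and *Clec1b*, the hemITAM receptor CLEC-2, of −0.0056. *Clec4n* (Dectin-2), another partner of the gamma chain and named here after its values were seen, was the only gene of this list to pass in the fit without GA replicate 1 (0.44, limma adjusted p = 0.0137, over a range of 0.00498 to 0.756 in all alternatives), in which 0.495% of tested genes were called higher and 0.55% lower.

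Of the other Src family kinases and their regulators, 7 of 10 were tested, with a median of −0.02 whose sign depended on single libraries. It was 0.09 without GA replicate 1, with 5 of 7 positive, 0.0090 and 0.02 without Ctrl replicates 1 and 3, and −0.07, −0.05 and −0.08 without Ctrl replicate 2, GA replicate 2 and GA replicate 3. *Src* was at 40.8, 38.5 and 39.3 FPKM in Ctrl and at 35.7, 33.01 and 36.6 FPKM in GA, with every GA library lower (log2 difference −0.17, limma adjusted p = 0.249). *Fyn* (−0.07) and *Csk* (0.02), the kinase that holds Src family members inactive, had overlapping groups. *Tec* was the single tested gene among the other Syk and Tec family kinases, with a log2 difference of −0.06 (−0.012 without GA replicate 1), and *Bmx* was below the minimum.

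All 20 adaptors and effectors below Syk were tested, 13 with a negative difference and a median of −0.04. The median was −0.019 and −0.067 without GA replicates 1 and 3, and −0.026 and −0.023 without Ctrl replicates 1 and 3. The most abundant were the scaffold *Lat* (297 FPKM in Ctrl), the adaptor *Lcp2* (131 FPKM) and *Plcg2*, phospholipase C gamma 2 (119.8 FPKM), with log2 differences of 0.03, −0.02 and −0.04. *Pik3r1*, a regulatory subunit of phosphoinositide 3-kinase, and *Vav3*, a guanine nucleotide exchange factor, had GA values below all Ctrl values, with log2 differences of −0.15 (limma adjusted p = 0.266) and −0.13 (limma adjusted p = 0.347).

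All 17 inhibitory receptors, phosphatases and adaptors were tested, 9 with a positive difference and a median of 0.01 (0.028, 0.0048 and 0.0027 without GA replicates 1, 2 and 3). The median was −0.00027 with the length trend removed. After rescaling each library to 1000000 it was −0.051, beside −0.043 for all tested genes. *Lilrb4a*, an ITIM receptor of myeloid and mast cells, was the highest at 608 FPKM in Ctrl. It was at 594.6, 607.6 and 621.3 FPKM in Ctrl and at 636.5, 644.6 and 622.8 FPKM in GA, with every GA library higher. Its log2 difference was 0.06 (limma adjusted p = 0.617), and −0.0079 with the length trend removed (limma adjusted p = 0.973). *Ptpn11*, which encodes the phosphatase SHP-2, was at 110.1, 114.9 and 109.4 FPKM in Ctrl and at 98.4, 101.4 and 101.6 FPKM in GA (log2 difference −0.15, limma adjusted p = 0.238). *Sla*, an adaptor that lowers receptor signalling, was at 115.7, 113.4 and 116.8 FPKM in Ctrl and at 107.4, 103.1 and 102.7 FPKM in GA (log2 difference −0.14, limma adjusted p = 0.239). For both genes every GA library was below every Ctrl library. *Ptpn6* (SHP-1), named after its values were seen, passed without GA replicate 1 (0.21, limma adjusted p = 0.0463, over a range of 0.0147 to 0.867 in all alternatives) and not with all libraries (0.11, adjusted p = 0.564). *Inpp5d*, the phosphatase that *Fcgr2b* recruits, had a log2 difference of −0.03 and is likewise named outside the rule.

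**Figure D4:**
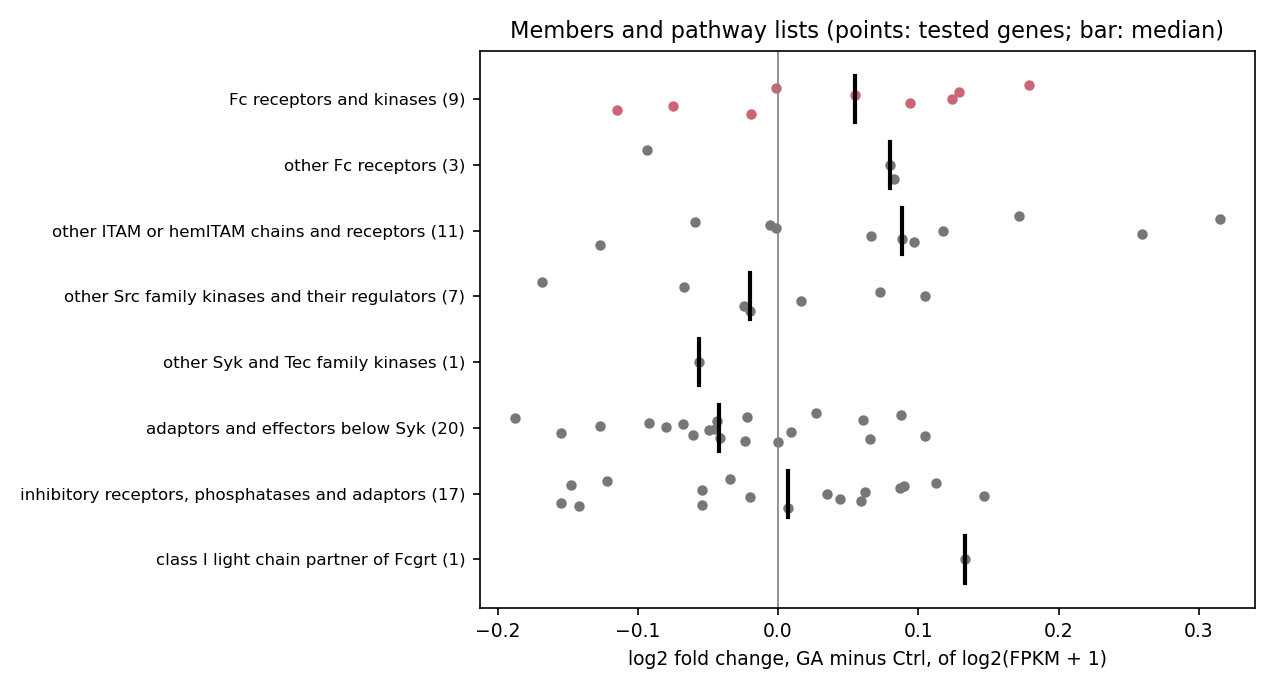
Difference between GA and Ctrl on the log2(FPKM + 1) scale for the 9 genes (top row, red) and each of the 60 tested genes of the 7 pathway lists (grey points), with the median of each row as a bar. The list medians lie between −0.06 and 0.13, and 0 of the 60 genes passed the adjusted threshold of 0.05.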

How the data were processed

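Total RNA was extracted with TRIzol and sequenced as DNBSEQ libraries. Per the submitters' processing notes, HISAT2 2.0.4, Bowtie2 2.2.5 and mm10 were used, and the methods name RSEM for expression. The authors deposited FPKM with 2 decimals. No source used here gives the annotation or the strand setting, so reads of genes on opposite strands, such as *Gm38204* at *Fcgr2b*, *Gm45669* at *Fcgrt*, *Gm15154* at *Btk* and several at *Lyn*, could not be told apart. Between 36.7% and 42.1% of low values lay within 0.15 of a whole multiple of 1 fragment, so the table was not turned back into reads and count tests were not used.

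Groups came from the sample titles. limma 3.58.1 (R 4.3.3) with a mean-variance trend, two-sided, was fitted on log2(FPKM + 1) for 10912 genes (of 18121) whose mean reached 1 FPKM, without a block, and Benjamini-Hochberg adjusted p-values under 0.05 over all tested genes were called. Fold changes on this scale understate the change of low genes. The fit was tested on simulated data. Lengths were medians over GENCODE M21 transcripts (98.2% of tested genes), and a loess fit (span 0.5) on log2 length removed the length trend. Coding sequences were read from GENCODE M21 on GRCm38.

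The members, lists, markers and tests were chosen with earlier results of these data known. Named genes were all 9 members, the 3 highest and the 2 with the smallest p of each pathway list, the 3 most like *Fcer1g*, and the highest marker of each list, and a few of these genes are not reported here. *Kit*, *Csf1r*, *Ms4a1*, *Pax5*, *Ppbp*, *Thbs1*, *Itga2b*, *Tubb1*, *Inpp5d*, *Clec4n*, *Ptpn6*, *Cd79a*, *Fcrl1*, *Fcrl5* and *Fcrla* were named outside this rule, after their values were seen. The further neutrophil, mast cell and basophil markers were likewise named after their values were seen. *Fcmr* and *Cd3e* were not analysed here. A total of 18 alternatives were planned and 1 was added after seeing the data: pseudocounts of 0.1 and 0.5, no filter or 5 FPKM, 3 scalings, length trend removed, replicate block, no variance trend, library weights (gene by gene, and the later one by restricted maximum likelihood), each library left out, and GA replicate 1 left out with the length trend removed.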

Additional observations from a re-analysis of the deposited data

How the results depend on the processing

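No member was called under 18 of the 19 alternatives. With library weights by restricted maximum likelihood, chosen after seeing the data and stopped short of its convergence tolerance, 2 members were called higher, *Fcgr3* (0.19) and *Fcgr2b* (0.20), as were 1010 genes higher and 450 lower in all, 11 of them from the pathway lists. Gene-by-gene library weights gave 385 higher, 224 lower and 7 list genes. Rescaling each library to 1000000 gave 3 genes lower. Leaving out GA replicate 1 with the length trend removed gave 16 higher, 109 lower and 3 list genes, and a members' median of −0.040. That median was −0.017 with the length trend removed alone. Leaving out single libraries gave 0 to 54 genes higher, 0 to 60 lower, 0 to 2 list genes, 4 to 6 members higher, 3 to 5 lower, and a members' median of −0.018 to 0.14. The calls arose without GA replicate 1. With a minimum of 5 FPKM, which removes *Fcgr1*, *Fcgr4* and *Fcgrt*, 3 of the remaining members were higher.

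Signs turned as follows on the log2 scale. *Fcgr4* was −0.025 with the length trend removed, *Btk* 0.0014 with gene-by-gene weights and 0.0051 with restricted maximum likelihood, and *Fcer1g* −0.054 with the length trend removed and GA replicate 1 left out. With single libraries left out, *Fcgr1* ranged from −0.043 to 0.031, *Fcgr4* from −0.070 to 0.15 and *Fcgrt* from −0.050 to 0.23. *Fcgr2b* and *Fcgr3* stayed positive and *Lyn* and *Syk* negative under all 19 alternatives. The cause of these changes was not tested.

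Among genes with an unadjusted limma p under 0.05, 65.7% were higher in GA as deposited, 51.7% with median of ratios scaling, 53.3% with TMM-type scaling, 25.5% after rescaling to 1000000 and 46.4% with the length trend removed. Whether the replicate numbers pair the samples is not known. Correlations of same-numbered libraries were −0.17, −0.13 and 0.0039. They cannot decide this, as values were centred within groups of 3 libraries. The fit with a replicate block called 0 genes and 0 members. The smallest differences detectable are limited by 3 libraries a group and, for *Fcgr1*, *Fcgr4* and *Fcgrt*, by levels of a few FPKM or less at unknown depth.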

Other observations

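Fc receptor-like genes, which are mostly known from B cells, were all near or below the minimum for testing. *Fcrl5* was at 1.12, 0.81 and 0.90 FPKM in Ctrl and at 1.12, 1.01 and 1 FPKM in GA. *Fcrl1* was at 1.24, 0.59 and 0.78 FPKM in Ctrl and at 0.88, 1.26 and 0.80 FPKM in GA. *Fcrla* was at 0.69, 0.57 and 0.60 FPKM in Ctrl and at 0.84, 0.50 and 0.78 FPKM in GA. For all of these genes the groups overlapped. They were described after their values were seen.

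*Cd79a*, the partner of *Cd79b* in the B cell receptor, was at 0.61, 0.82 and 0.41 FPKM in Ctrl and at 0.84, 0.66 and 0.41 FPKM in GA. It overlapped between the groups and was below *Cd79b* in every library, though *Cd79b* itself was higher in every GA library than in any Ctrl library. *Cd79a* was likewise chosen after its values were seen.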
